A study of Mus musculus with 6 samples.

Results

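Gamma delta T cells of the newborn mouse lung were the 182 cells that the authors' annotation calls gd T cell, out of 61839 annotated cells in all. They made up 0.294% of all cells and 2.91% of the 6264 lymphoid cells, and ranked 31st by number among 34 annotated types. Lungs came from C57BL/6 pups that breathed 21% O2 (normoxia) or 85% O2 (hyperoxia) from the day of birth until harvest on postnatal day 3, 7 or 14 (P3, P7, P14). Hyperoxia in newborn rodents is a model of bronchopulmonary dysplasia, the chronic lung disease of infants born preterm. Each of the 6 groups of age and oxygen held 6 mice, so 36 mice were compared, and all groups shared the strain, the digestion of the lung to single cells and the droplet assay. Lungs were labelled with a sample barcode and pooled, with 3 normoxic and 3 hyperoxic mice of an age in each pool, so that oxygen can be compared within pools. P3 and P14 never shared a pool, so age and pool cannot be told apart in a comparison of these ages. The lungs were whole, perfused tissue with no sorting for lymphocytes.

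Gamma delta T cells are T lymphocytes whose antigen receptor joins a gamma and a delta chain in place of the usual alpha and beta chains. Several waves leave the fetal thymus with a fixed receptor and a fixed cytokine programme, settle in skin, mucosa and lung, and persist there. One such programme makes interleukin 17A (encoded by Il17a) upon IL-1 and IL-23, and IL-17A acts on epithelium and stroma, which then make chemokines that draw neutrophils. Such cells are known in the lung from early life on.

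The number of gamma delta T cells per mouse ran from 0 to 14 among 125 to 3036 cells of a mouse. 35 of the 36 mice had at least 1 such cell, 24 had at least 3 (11 normoxic and 13 hyperoxic, with 165 cells), and 6 had 10 or more. Counts are of unique molecular identifiers (UMIs, 1 per captured RNA molecule). The cells held a median of 4084.5 UMIs, from 1153 to 18891, and 891685 UMIs in sum. Levels below are UMIs of a gene per 1000000 UMIs summed over the gamma delta T cells of a mouse (CPM), averaged over the 24 mice with at least 3 of them unless stated. 4 of the 182 cells carried a cell barcode that another library also held, of 394 barcodes shared between libraries over all cell types.

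The promoters of Il17a and Il17f are shown because Il17a was the gene that set these cells apart most. At P14 it also had the largest estimated positive log2 fold change of hyperoxia over normoxia among 665 genes tested. That value of 4.36 did not pass (adjusted p = 0.0602, edgeR quasi-likelihood) and was 3.27 without the highest hyperoxic mouse. Il17a and Il17f both lie on chromosome 1 and encode related cytokines. The sequences are the 250 bases before the start of each gene in RefSeq (build GRCm38.p6), 5′ to 3′ on the gene's own strand. Capitals mark AGGTCA or its reverse complement TGACCT, the core half-site of many, but not all, nuclear receptors. 14% of 32851 RefSeq promoters of this length (4607) held that core on either strand, so a match is common.
Il17a, chr1:20730655-20730904, plus strand: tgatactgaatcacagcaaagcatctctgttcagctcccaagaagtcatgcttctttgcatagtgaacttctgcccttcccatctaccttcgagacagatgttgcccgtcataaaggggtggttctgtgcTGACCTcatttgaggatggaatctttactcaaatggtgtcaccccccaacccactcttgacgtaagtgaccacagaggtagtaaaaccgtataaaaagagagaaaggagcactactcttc
Il17f, chr1:20784271-20784520, minus strand: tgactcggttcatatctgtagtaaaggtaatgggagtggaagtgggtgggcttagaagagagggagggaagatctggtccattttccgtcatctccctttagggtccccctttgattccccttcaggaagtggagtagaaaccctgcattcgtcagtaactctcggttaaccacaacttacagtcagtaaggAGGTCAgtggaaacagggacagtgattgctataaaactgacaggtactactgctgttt
The core began 120 bases before the start of Il17a and 58 bases before the start of Il17f, once in each promoter. The strands of the cores differed, since the Il17a promoter read TGACCT and the Il17f promoter AGGTCA. Binding of a factor was not measured here.

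The label of the cells was checked against their receptor genes. Trdc, the constant region of the delta chain (chromosome 14, 54142851 to 54148868, plus strand, build mm10), averaged 1808 ± 578 CPM (SD, n = 24 mice) and was found in 91.2% of the cells. Tcrg-C1, a constant region of the gamma chain (chromosome 13, 19214103 to 19217024), averaged 518 ± 202 CPM and was found in 80.8%. All 10 gamma and delta receptor genes of the list that the table holds were highest in gamma delta T cells among the 34 types, and 180 of the 182 cells had a UMI of at least 1 of them. These genes served to define the cluster, so the values describe it and no test was made of the cluster against other types.

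Among variable segments, Trdv4 of the delta chain was found in 51.6% of the cells at 217 ± 140 CPM. Tcrg-V6 of the gamma chain gave 23 UMIs in the whole table, and all 23 fell in gamma delta T cells. They were spread over 20 cells, 15 of which also had Trdv4. Tcrg-V4 was found in 2 cells, Tcrg-V5 in 2, Tcrg-V1 in 6 and Trgv2 in 21. The pairing of a Tcrg-V6 chain with a Trdv4 chain is known from fetal waves of IL-17-producing cells. With so few UMIs per segment, a segment that was not found in a cell cannot be called absent.

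Defining markers of the neighbouring types were rare, but not all of their listed genes were. Of 9 alpha beta T cell genes, 5 were found in 10% of the cells or more, as were 2 of 9 ILC2 genes (group 2 innate lymphoid cells), Gata3 and Arg1. Cd4 had a UMI in 1 cell, Cd8a in 1, and Cd8b1, Foxp3, Ncr1, Il1rl1, Il13 and Il5 in 0 of 182 cells, which allows a share of up to 1.65% with a UMI. Of 6 NK cell genes, 4 were at 0 in gamma delta T cells, and of 9 ILC2 genes, 5 were at 0. Gata3 was present at 85.8 ± 85.8 CPM, against 890 CPM in ILC2, and Arg1, an enzyme of ILC2, in 22.5% of the cells at 145 ± 190 CPM, against 460 CPM. Trac, the constant region of the alpha chain, was found in 22 cells at 45.0 ± 61.3 CPM, whereas the beta chain constant regions Trbc1 (666 ± 466 CPM) and Trbc2 (1011 ± 469 CPM) were abundant, although lower than in CD4+/CD8+ T cells (4015 and 4415 CPM). Trbc1 and Trbc2 are near-identical copies between which reads can be split.

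RNA of genes that mark other lung cells was found throughout. Sftpc, the surfactant protein of type 2 epithelium, had a UMI in 93.4% of gamma delta T cells and 88.9% of B cells, and Scgb1a1, the club cell secretory protein, in 91.8% and 90.5%. Depth differed between the types. At 1000 UMIs per cell the shares were 53.8% of gamma delta T cells and 61.7% of B cells for Sftpc, and 51.1% and 64.7% for Scgb1a1. The source of this RNA was not tested. Il17a and Trdc behaved otherwise, with a UMI in 0.127% and 0.0849% of 2356 B cells (median 2181 UMIs) against 54.4% and 91.2% of gamma delta T cells. With every cell thinned to 1000 UMIs, the shares in gamma delta T cells were 38.5% and 69.8%. Hbb-bs averaged high through 1 normoxic P7 mouse, in which the summed level of 20 markers of other cell types was 141028 CPM, against 1339 to 5099 CPM in the P14 mice.

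The genes with the largest ratio to the highest other type were Il17a, Il23r, Tcrg-C1, Actn2, Cd163l1, Trdc, Tns4, Trdv4, Prelid2, Pdcd1, Slc7a6os, Slc16a6, Podnl1, Zbtb16 and Adgrg5, in this order. Il17a (chromosome 1, 20730905 to 20734496, plus strand) stood first. Of 1184 Il17a UMIs in the whole table, 1114 (94.1%) fell in the 182 gamma delta T cells and the next type, regulatory T cells, held 18. Il23r, which encodes the receptor subunit specific to IL-23, had 78.0% of its UMIs in these cells at 58.4 ± 51.6 CPM. Cd163l1, a scavenger receptor of the SRCR family, had 74.2% of its UMIs there and a UMI in 88.5% of the cells at 862 ± 268 CPM.

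**Figure D1:**
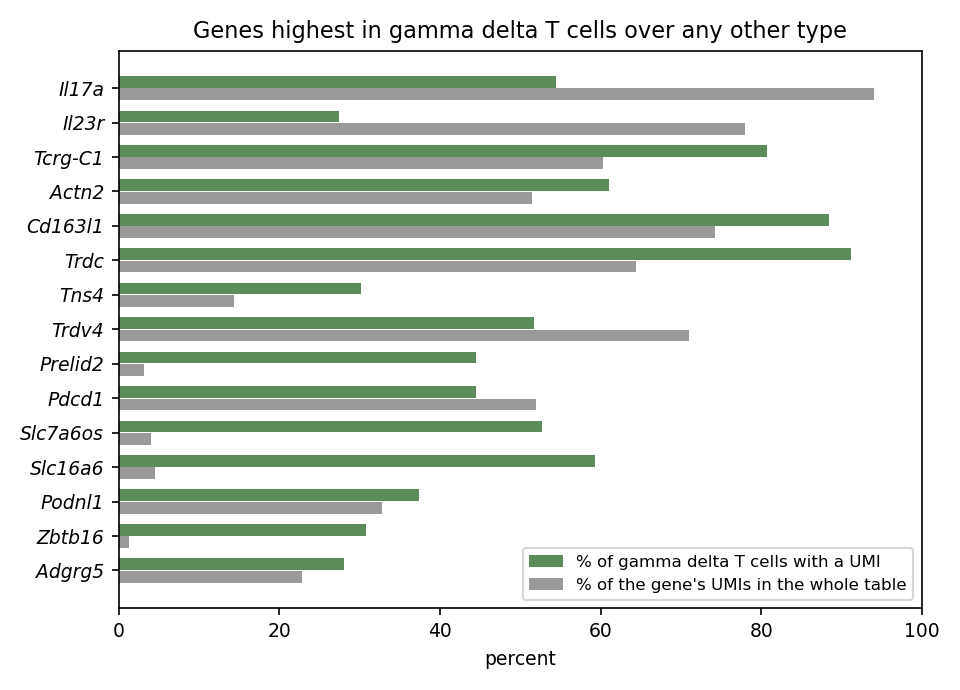
The 15 genes with the largest ratio of mean CPM in gamma delta T cells to the highest other type, from the largest at the top. Green bars give the percent of the 182 cells with a UMI and grey bars the percent of all UMIs of the gene in the table, from 94.1% for Il17a to 1.31% for Zbtb16, most of whose UMIs fall in other types.

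Some of these markers were shared. Trdc was not particular to the cells, since 18.4% of its UMIs were in CD8+ T cells and 5.44% in NK cells, and ILC2 held 17.6% of the Trdv4 UMIs. Il18r1, the ligand-binding chain of the IL-18 receptor, averaged 348 ± 188 CPM and was found in 67.6% of the cells, but NK cells reached 276 CPM and only 2.62% of its UMIs were in gamma delta T cells. Blk, of the type 17 list, had 73.5% of its UMIs in B cells and 15.5% in gamma delta T cells.

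The type 17 programme was broad. Of its 27 listed genes, 23 were found in 10% of the cells or more and 16 were highest in gamma delta T cells among the 34 types. Cxcr6 (775 ± 301 CPM) and Ccr2 (663 ± 235 CPM), both homing receptors, Ramp1 (819 ± 260 CPM), which forms the receptor for calcitonin gene-related peptide, and Blk (354 ± 149 CPM), a Src family kinase used by these cells, were among them. Of the 16 genes of the type 1 and cytotoxic programme, 3 were found in 10% of the cells or more and 0 were highest there. Ifng was found in 3 cells and Il22 in 5.

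Cytokine receptors and secreted factors were listed without a division by programme. Among 14 cytokine receptor genes, Il7r (1207 ± 641 CPM), Il18r1, Il1r1 (146 ± 116 CPM), Il23r and Il12rb1 (50.7 ± 44.8 CPM) were highest in gamma delta T cells. Among 13 secreted factors, Il17a (1125 ± 1678 CPM), Ltb (945 ± 359 CPM), Tnfsf11 (161 ± 111 CPM), Il17f (59.1 ± 95.4 CPM) and Lta (52.8 ± 87.9 CPM) were highest there. Ltb and Lta encode lymphotoxins and Tnfsf11 the ligand RANKL. The mean and SD of Il17a rest in part on 1 mouse at 8237 CPM, which had 1238 CPM without its 1 cell of most Il17a UMIs. Mki67 and Top2a, which mark dividing cells, were each found in 20.3% of the cells.

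The ligands and receptors around the cells were highest in other types. Il1b was highest in the first neutrophil cluster (7741 ± 1613 CPM, n = 36 mice), which was also highest for Il23a (43.6 ± 40.5 CPM). Il18 was highest in alveolar macrophages (440 ± 216 CPM) and Il7 in lymphatic endothelium (60.9 ± 42.5 CPM, n = 34). Il17ra, the receptor subunit for IL-17A, was highest in monocytes (249 ± 91.4 CPM) and averaged 49.0 ± 75.0 CPM in gamma delta T cells. Tgfb1 was highest in monocytes (315 ± 59.2 CPM) and averaged 174 ± 131 CPM in gamma delta T cells. Il23a, Il6, Il7 and Csf3 had no UMI in the gamma delta T cells.

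The share of gamma delta T cells was compared between oxygen levels at each age. At P14 the share of all cells of a mouse ran from 0.0561% to 0.428% in normoxia (median 0.190%, 31 cells) and from 0.309% to 1.06% in hyperoxia (median 0.498%, 53 cells). 4 of 6 hyperoxic mice lay above every normoxic mouse, and the other 2 overlapped with the upper normoxic ones. The means were 0.205% ± 0.144 and 0.618% ± 0.304 (SD, n = 6), 3.02-fold apart. The difference of 0.413 percentage points had p = 0.00866 in a two-sided exact permutation test and an adjusted p of 0.0519 over 34 types and 3 ages (Benjamini-Hochberg), so it narrowly missed the threshold of 0.05. 11 of the 34 types (32.4%) passed at this age, and 20.6% had groups without overlap.

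The design of the pools allowed a comparison with pool held fixed. In the first P14 pool the mean share was 0.269% in normoxia and 0.819% in hyperoxia, and in the second 0.140% and 0.417%, with no overlap between the 3 mice of each level in either pool. In the second pool the nearest mice were close, at 0.297% (6 of 2019 cells) in normoxia and 0.309% (6 of 1939 cells) in hyperoxia. How many of the other types had no overlap within pools was not counted. With permutation within pools the adjusted p was 0.0464 (exact test). As a share of lymphoid cells, the difference at P14 was 4.20 percentage points (adjusted p = 0.0292, exact permutation test). The denominator differed as well, with 238 to 609 lymphoid cells per mouse in normoxia and 148 to 175 in hyperoxia. How many other types passed within pools or among lymphoid cells is not given here.

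At P7 the share ran from 0.0805% to 0.231% in normoxia (median 0.181%, 17 cells) and from 0.121% to 3.20% in hyperoxia (median 0.512%, 43 cells). 5 of 6 hyperoxic mice were above all normoxic mice, and 5.88% of types had groups without overlap at this age. The means were 0.173% ± 0.0515 and 0.905% ± 1.15 (SD, n = 6), with p = 0.0130 and an adjusted p of 0.0697 (exact permutation test), where 8.82% of types passed. The highest value came from a mouse with 125 cells in all, 4 of them gamma delta T cells. Without that mouse the difference shrank to 0.272 percentage points (adjusted p = 0.0883, exact permutation test).

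At P3 the levels were alike in their range. The share ran from 0% to 0.437% in normoxia (median 0.162%, 17 cells) and from 0.0557% to 0.539% in hyperoxia (median 0.161%, 21 cells). The means were 0.201% ± 0.170 and 0.198% ± 0.174 (SD, n = 6), with an adjusted p of 0.989 (exact permutation test), and 0% of types passed at this age. The mouse at 0% had 0 of 2375 cells, which allows a share of up to 0.126% by counting error alone.

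**Figure D2:**
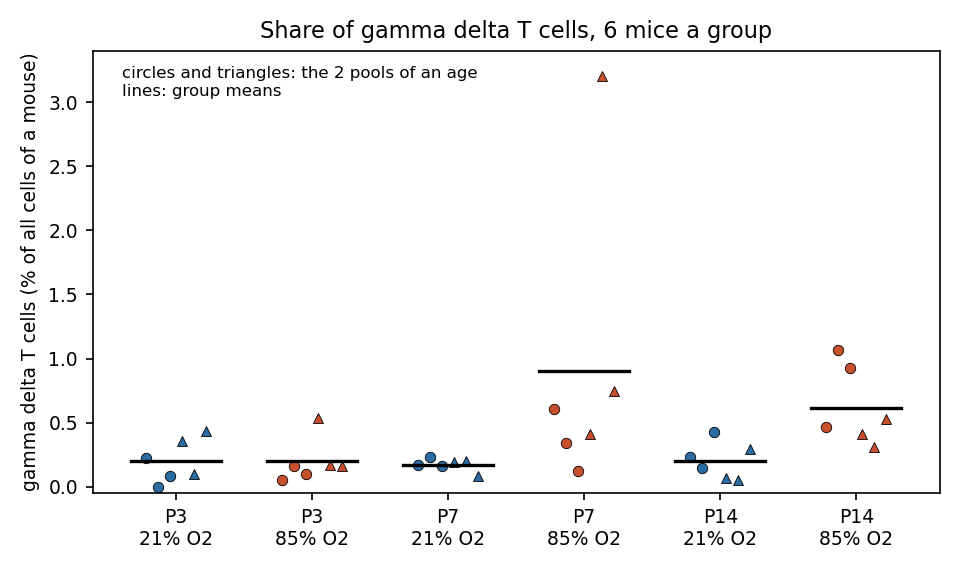
Gamma delta T cells as percent of all cells of each of 36 mice, by age and oxygen level, with 21% O2 in blue and 85% O2 in red. Circles and triangles are the pools of an age and black lines the means of 6 mice, 0.205% and 0.618% at P14. At that age 4 of 6 hyperoxic mice lie above every normoxic mouse, and the others overlap with the upper normoxic ones.

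Whether the effect of hyperoxia on the share differed between ages was tested on the effects themselves. The effect at P14 exceeded that at P3 by 0.416 percentage points, with p = 0.0349 and an adjusted p of 0.142 (permutation test, 100000 resamples). Against P7 it was lower by 0.318 (adjusted p = 0.844, permutation test). That sign rests on the P7 mouse with 125 cells in all, without which the effect at P7 was 0.272, below the 0.413 at P14. The sign also turned with lymphoid cells as the denominator. 0% of types passed in either comparison, so no difference between ages was detectable with 6 mice a group.

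Between ages the share in normoxia stayed within the spread of mice. P7 minus P3 was -0.0272 percentage points and P14 minus P7 was 0.0314, with adjusted p of 0.814 and 0.774 (exact permutation tests). In hyperoxia the share was 0.707 higher at P7 than at P3 (adjusted p = 0.173) and 0.420 higher at P14 than at P3 (adjusted p = 0.0690, exact permutation tests). The P7 value leans on the mouse at 3.20% (4 of 125 cells), and the sign from P3 to P7 turned with lymphoid cells as the denominator. None of the differences between ages passed, while 20.6% of types passed from P3 to P14 in hyperoxia and 38.2% in normoxia.

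Gamma delta T cells were then set against the lymphocytes most like them, as the log2 of the ratio of cell numbers in each mouse with 0.5 added to both. At P14 the ratio to CD8+ T cells averaged -3.42 ± 1.06 in normoxia and -1.22 ± 0.70 in hyperoxia (SD, n = 6). Every hyperoxic mouse was above every normoxic one. The difference of 2.20 had p = 0.00216, the smallest that 6 against 6 mice can give, and an adjusted p of 0.0130 over 12 comparisons (exact permutation test).

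The ratio to CD4+ T cells at P14 moved likewise, from -4.85 ± 1.10 to -2.03 ± 0.84, with a difference of 2.81 and the same adjusted p of 0.0130 (exact permutation test), again higher in 6 of 6 mice. The numbers behind it were of unlike size, since normoxic mice had 71 to 202 CD4+ T cells and 1 to 13 gamma delta T cells, and hyperoxic mice 19 to 61 and 6 to 14. The ratio to ILC2 differed by 0.97 (adjusted p = 0.291) and that to NK cells by 0.29 (adjusted p = 0.614, exact permutation tests), neither beyond the spread of mice. At P3 and P7 none of the 8 ratios passed, with adjusted p from 0.279 to 0.935 (exact permutation tests).

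**Figure D3:**
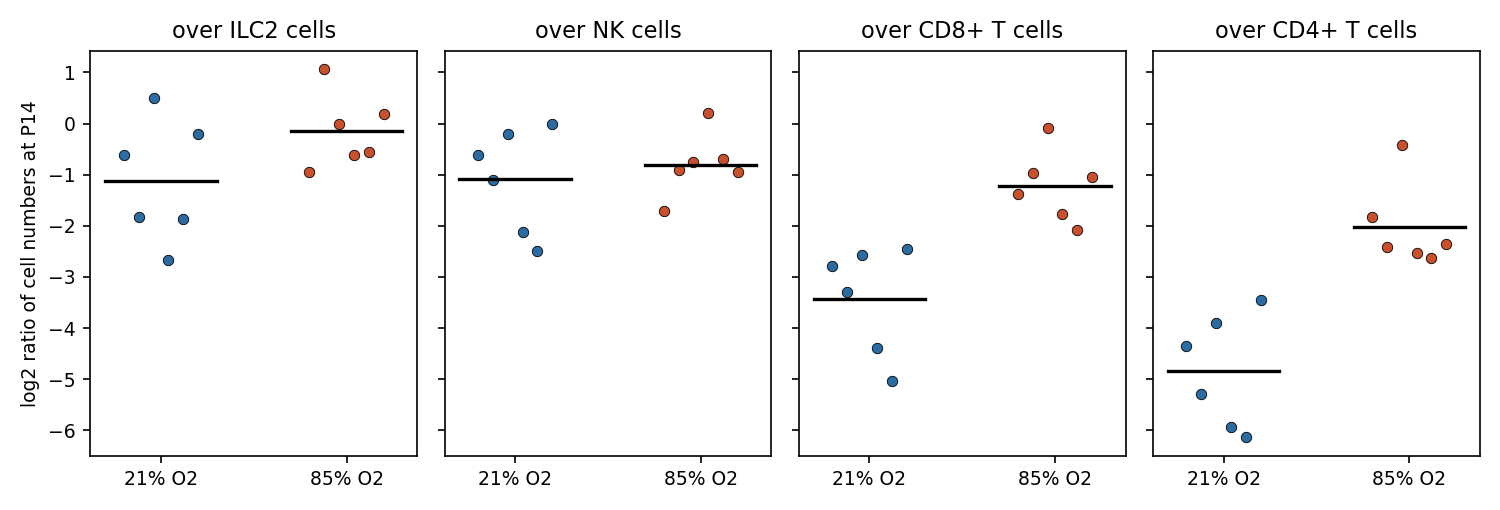
Log2 ratio of gamma delta T cells to 4 other lymphocyte types at P14, 1 point per mouse and black lines for means of 6. The points of 85% O2 lie wholly above those of 21% O2 for CD8+ T cells (-1.22 against -3.42 on average) and CD4+ T cells (-2.03 against -4.85), and overlap for ILC2 and NK cells.

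The depth per cell differed between the oxygen levels at P14 and moves with the gene results that follow. The median UMIs per gamma delta T cell of a mouse ran from 2082 to 2777 in 4 normoxic mice and from 2806 to 4718 in 6 hyperoxic mice with at least 3 cells, with no overlap. The difference of 1310 UMIs had an adjusted p of 0.0714 over 3 ages, 0.0375 with permutation within pools and 0.00649 with mice of at least 1 cell, where it was 1321 (exact permutation tests). At P7 the means were 5345 and 4316 UMIs (adjusted p = 0.393, exact permutation test).

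Il17a was then compared between oxygen levels. In gamma delta T cells the 4 normoxic mice had 0, 0, 93.6 and 145 CPM, and the 6 hyperoxic mice ran from 642 to 8237 CPM with a median of 921. All hyperoxic mice were above all normoxic ones, and 9 of 665 genes (1.35%) showed that pattern. The log2 fold change was 4.36 (SE 1.05), with an adjusted p of 0.0602 in edgeR's quasi-likelihood test with Benjamini-Hochberg adjustment, so Il17a did not pass over all genes. With DESeq2 on the same counts it passed (adjusted p = 0.00548), and the adjusted p by other settings ran from 1.05e-20 with no filter on low counts to 0.189 on leaving out 1 normoxic mouse. The log2 fold change was 3.27 without the highest hyperoxic mouse, 5.33 without the highest normoxic mouse, 3.55 with pool as a replicate block and 3.03 on cells thinned to 1000 UMIs.

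As a single value, chosen after the levels were seen, Il17a at P14 differed by 5.23 on the log2(CPM + 10) scale, from 5.15 to 10.38 (p = 0.00476 in a two-sided exact permutation test, the smallest that 4 against 6 mice allow). Permutation within pools gave p = 0.0125 (exact test). The highest mouse owed its level to 1 cell with 234 of the 264 Il17a UMIs of that mouse, 2.99% of all RNA counted in the cell. Without that cell the mouse stood at 1238 CPM, the difference was 4.77 and p stayed at 0.00476 (exact permutation test). With the 2 normoxic mice of 1 gamma delta T cell each added, 1 of which had 6 Il17a UMIs in that cell (2459 CPM), the difference was 4.51 with p = 0.0130 (exact permutation test), and 1 of 6 hyperoxic mice was above all normoxic mice.

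The share of cells with an Il17a UMI at P14 was 16.1% (5 of 31) in normoxia and 54.7% (29 of 53) in hyperoxia. With every cell thinned to 1000 UMIs, so that depth was equal, the shares were 12.9% and 43.4%. On thinned cells the difference in CPM was 4.71 on the same log2 scale (p = 0.00952, exact permutation test), with 5 of 6 hyperoxic mice above all normoxic mice. The part of depth in the result beyond this was not tested. The summed markers of other cell types moved with the comparison, with 1566 to 5099 CPM in normoxia (median 3491) and 1339 to 2723 CPM in hyperoxia (median 1704) over 20 genes. Scgb1a1 differed by -0.82 and Sftpc by -0.56 on the log2 scale, neither past the threshold, and the part of such RNA in the result was not tested. Ranges also overlapped for the 9 alpha beta T cell genes (492 to 2264 CPM in normoxia and 967 to 2249 CPM in hyperoxia). The 6 NK cell genes were at 0 CPM in all 10 mice.

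At the younger ages the Il17a levels overlapped. At P7 normoxic mice ran from 487 to 1410 CPM (n = 4) and hyperoxic mice from 51.6 to 3135 CPM (n = 5), with p = 0.952 in an exact permutation test. At P3 the 3 normoxic mice had 143, 672 and 1115 CPM and the 2 hyperoxic mice 0 and 973 CPM, where 10 splits allow no p below 0.05. By oxygen over all ages the log2 fold change was 1.55 (SE 0.57, adjusted p = 0.575, edgeR quasi-likelihood), and the difference between the P14 and P7 effects was 3.65 (adjusted p = 0.307, edgeR quasi-likelihood). An oxygen effect limited to P14 was therefore not shown.

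Il17a was also summed over all cells of a mouse whatever their annotated type, which needs no minimum of cells and mixes the number of cells with RNA per cell. At P14 normoxic mice had 0 to 1.08 Il17a UMIs per 1000000 UMIs (median 0.345, 26 UMIs in all) and hyperoxic mice 1.65 to 17.1 (median 4.62, 483 UMIs). Il17a was chosen after its P14 levels were seen, and 94.1% of its UMIs are those of the gamma delta T cells above, so this is the same signal and no independent test. 234 of the 483 hyperoxic UMIs came from 1 cell. All 6 hyperoxic mice were above all normoxic ones (p = 0.00216, adjusted p = 0.0195 over 9 comparisons, exact permutation test, and p = 0.005 within pools, the smallest possible). The 9 comparisons cover only Il17a, Trdc and Cd163l1 at each age, so the adjustment does not allow for the choice of Il17a among all genes. How many other genes had no overlap in such sums was not counted. At P7 the medians were 0.831 and 3.88 (adjusted p = 0.0877) and at P3 1.47 and 1.14 (adjusted p = 0.537, exact permutation tests). Trdc and Cd163l1, summed likewise, did not pass at any age (adjusted p from 0.0909 to 0.924, exact permutation tests).

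**Figure D4:**
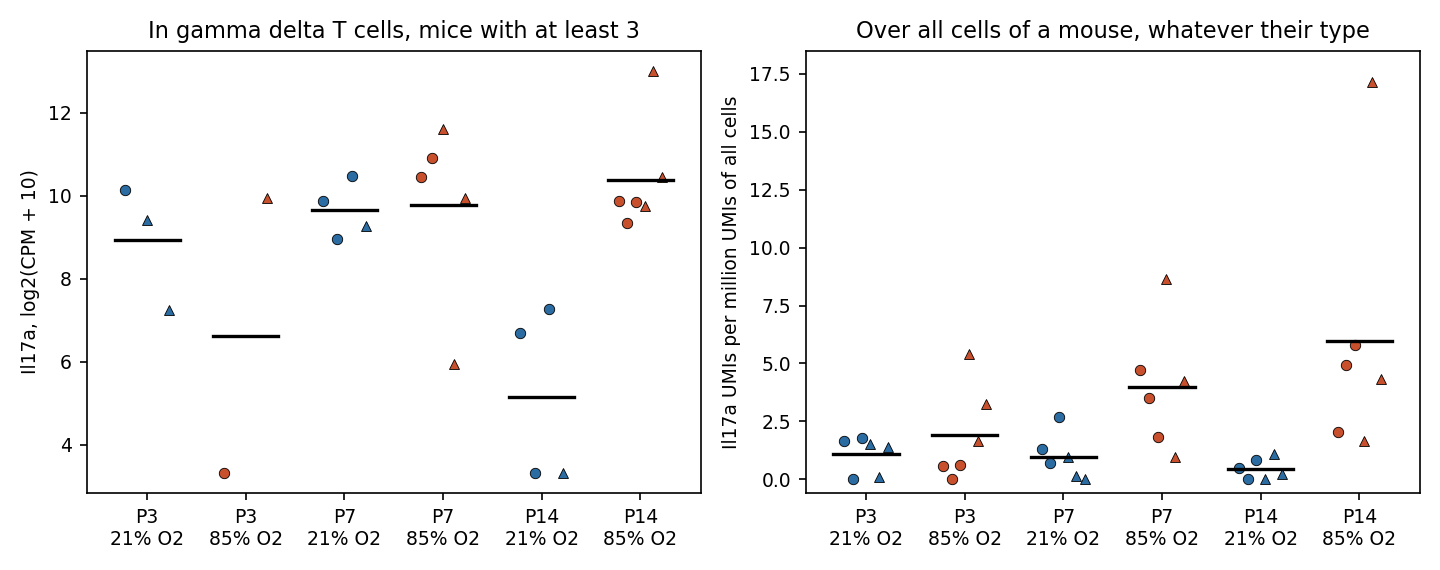
Il17a by mouse, in gamma delta T cells of the 24 mice with at least 3 of them as log2(CPM + 10) at left, and over all cells of 36 mice as UMIs per 1000000 UMIs at right. Blue is 21% O2, red is 85% O2, circles and triangles are the pools of an age and black lines are means, and at P14 no red point overlaps a blue one in either plot.

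The type 17 programme as a whole held no call at P14. Of 14 genes of the programme with enough counts to test, 0 passed in edgeR's quasi-likelihood test, as did 0 of 665 genes (0%) in all. The median log2 fold change of the 14 was 0.02, against -0.03 over all genes tested. Trdc differed by 0.24, Cd163l1 by -0.30, Cxcr6 by -0.05 and Ccr2 by -0.16. Il23r, with 0 CPM in 3 of 4 normoxic mice and 0 to 80.3 CPM in hyperoxic mice, was too low to test, and so was Il17f, with UMIs in 1 of 4 normoxic and 3 of 6 hyperoxic mice.

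The other genes with enough counts to test were compared between oxygen levels. Over all ages 0 of 510 genes passed (28 had an unadjusted p under 0.05), and at P14 0 of 665 (85 with an unadjusted p under 0.05) in edgeR's quasi-likelihood test. DESeq2 called 0 and 3, the 3 being Il17a, Actb and Actg1, and edgeR called the same 3 at P14 with library totals in place of TMM. With pool as a replicate block edgeR called 1 at P14, Actb (0.81, adjusted p = 0.0427). The 10 genes with the smallest p at P14 without the block, none of which passed, were Actb, Il17a, Actg1, Ifngr1, Serinc3, Ets1, Dap, Vim, Ms4a4b and Tagln2. Those over all ages were Clint1, Sec11c, Hspa1a, Rps27l, mt-Co2, S100a4, Dusp1, Serinc3, Il17a and Ets1, each with an adjusted p of 0.575.

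Values are given for some of these genes, picked after they were seen. Actb, cytoplasmic beta actin, had 2790, 3119, 4095 and 4164 CPM in the normoxic P14 mice and 4999 to 8549 CPM (median 6549) in the hyperoxic ones, with no overlap. The log2 fold change was 0.79 (SE 0.19, adjusted p = 0.0602, edgeR quasi-likelihood). Actg1, gamma actin, had 982 to 1902 and 2410 to 3650 CPM, again without overlap (0.95, SE 0.23, adjusted p = 0.0602, edgeR quasi-likelihood). Vim, the intermediate filament vimentin, had 837 to 1969 and 2042 to 3370 CPM (1.05, SE 0.31, adjusted p = 0.153, edgeR quasi-likelihood).

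Ifngr1, the ligand-binding chain of the interferon gamma receptor, lay the other way. Its level was 1590 to 1969 CPM in the 4 normoxic and 666 to 1473 CPM in the 6 hyperoxic P14 mice, without overlap, with a log2 fold change of -0.95 (SE 0.24, adjusted p = 0.0892, edgeR quasi-likelihood). Ets1, a transcription factor of lymphocytes, had 1123 to 1805 and 402 to 876 CPM (-0.91, SE 0.26, adjusted p = 0.153, edgeR quasi-likelihood). Ms4a4b, a membrane protein of T cells, had 46.8 to 492 CPM in normoxic mice, and 0 CPM in 5 of 6 hyperoxic mice. Counting genes lower in every hyperoxic than in every normoxic mouse gave 10 of 665 (1.50%).

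The gene lists for other responses held no call by oxygen at P14. Of 11 immediate early genes tested the median log2 fold change was 0.08, of 7 cell cycle genes 0.31, of 8 residency and egress genes -0.23 and of 6 T cell receptor complex genes 0.17, against -0.03 over all genes. Only 1 of 12 NRF2 and metal response genes had enough counts (Prdx1, a peroxiredoxin, 0.77), and 3 of 13 p53 response genes, with a median of 0.72. No interferon response gene had enough counts. A UMI of Mki67 was found in 12.9% of normoxic and 17% of hyperoxic P14 cells, 9.68% and 9.43% after thinning.

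The oxygen effect differed between P14 and P7 for 2 of 665 genes (0.301%), and both had a higher effect at P14. Actb ran from 5099 to 8416 CPM in normoxia and 3906 to 6220 CPM in hyperoxia at P7, with overlap, while at P14 every hyperoxic mouse was higher. The effects differed by 1.19 (SE 0.26, adjusted p = 0.0355, edgeR quasi-likelihood). An oxygen effect at P7 by itself was not tested. Hsp90ab1, a cytosolic chaperone, had 1336 to 3607 CPM in normoxia and 928 to 1847 CPM in hyperoxia at P7, and 1123 to 1749 and 1741 to 2269 CPM at P14, with a difference of 1.38 (SE 0.31, adjusted p = 0.0355, edgeR quasi-likelihood). With pool as a replicate block 1 gene passed, Actb, and with cells thinned to 1000 UMIs 0 did. The count was 0 without each of 3 of the 4 normoxic P14 mice, 1 hyperoxic P14 mouse, 1 normoxic P7 mouse or 2 hyperoxic P7 mice. Without the normoxic P7 mouse at 141028 CPM of markers of other cell types it was 3, as it was without some other mice. The induced chaperone Hspa1a, near 0 in most mice, reached 1669 CPM in 1 normoxic P7 mouse and 817 CPM in 1 normoxic P3 mouse. 

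Genes of the gamma delta T cells were then compared between ages. With both oxygen levels in 1 fit, 86 of 510 genes (16.9%) differed between P14 and P3, 47 higher (9.22%) and 39 lower (7.65%) at P14 (edgeR quasi-likelihood, adjusted p below 0.05). The comparison rests on 5 P3 mice and 10 P14 mice from different pools, so age and pool cannot be told apart. Depth differed too, since the median UMIs per cell of a mouse averaged 5082 and 5246.5 over P3 mice (normoxia and hyperoxia) and 2417 and 3728 over P14 mice. With every cell thinned to 1000 UMIs, 125 genes could be tested and 11 passed, 10 of them among the 86. P7 mice, only some of which shared a pool with P3 mice, are given beside some of the genes.

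The genes that rose most were H2-Q7, Bcl2a1b, Serinc3, Dennd4a, Cd44, Cd69, Icos, Thy1, Fosb and Tmem176b, by 1.44 to 2.19 on the log2 scale. Icos, a costimulatory receptor of T cells (chromosome 1, 60977927 to 61000320), had 149, 204 and 305 CPM in the normoxic and 150 and 401 CPM in the hyperoxic P3 mice. At P14 its median was 557 CPM over 10 mice, from 164 to 871 CPM, and the mice at 164 and 374 CPM fell within the range of P3. P7 mice ran from 334 to 567 CPM. The log2 fold change was 1.61 (SE 0.27, adjusted p = 0.00035, edgeR quasi-likelihood).

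Of 7 residency and egress genes tested 3 rose, Cd44 (1.63), Cd69 (1.63) and Cxcr6 (1.29), and 0 fell, where 9.22% of all genes tested rose. The other 4 did not pass, with log2 fold changes of 0.56 for Rgs1, 0.37 for Itgb7, -0.16 for Selplg and -0.86 for Klf2. The list had a list median of 0.56 against 0.05 over all genes tested. Cxcr6, the receptor for the membrane-bound chemokine CXCL16, had 100 to 520 CPM at P3 (median 391) and 593 to 1178 CPM at P14 (median 904), without overlap. In the P7 mice it ran from 612 to 1286 CPM. Cd44, the hyaluronan receptor, went from 122 to 223 CPM at P3 to a median of 445 CPM at P14, where 1 of 10 mice was at 0 CPM.

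The type 17 programme held 6 genes that rose and 0 that fell among 14 tested, beside 9.22% of all genes that rose, with a median of 0.92 against 0.05 over all genes tested. They were Cxcr6, Ccr2 (1.26), Ramp1 (1.20), Maf (1.10), Tmem176a (1.33) and Tmem176b (1.44). Ccr2, the receptor for monocyte chemoattractant proteins, had 122 to 602 CPM at P3 and 520 to 1066 CPM at P14. Ramp1 had 244 to 602 and 702 to 1313 CPM, without overlap, and Maf, a transcription factor that the IL-17 lineage needs, 224 to 489 and 402 to 1141 CPM. The genes at the centre of the programme did not pass, with log2 fold changes of 0.74 for Il17a, 0.18 for Cd163l1 and 0.40 for Rora, nor did Trdc (0.29) and Tcrg-C1 (0.51). The value for Il17a joins both oxygen levels, and the normoxic mice went the other way. They had 143 to 1115 CPM at P3 (n = 3) and 0 to 145 CPM at P14 (n = 4). Hyperoxic mice had 0 and 973 CPM at P3 and 642 to 8237 CPM at P14 (n = 6).

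Some of the called genes, picked after their values were seen, encode class I major histocompatibility proteins. H2-K1, which presents peptides to CD8+ T cells, had 428 to 1304 CPM at P3 and 1477 to 2662 CPM at P14, without overlap (1.18, SE 0.22, adjusted p = 0.000628, edgeR quasi-likelihood), and in P7 mice 913 to 2461 CPM. H2-D1 rose by 0.65 and H2-Q7 by 2.19. H2-Q7 and Bcl2a1b belong to families of near-identical copies, so their counts are uncertain.

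**Figure D5:**
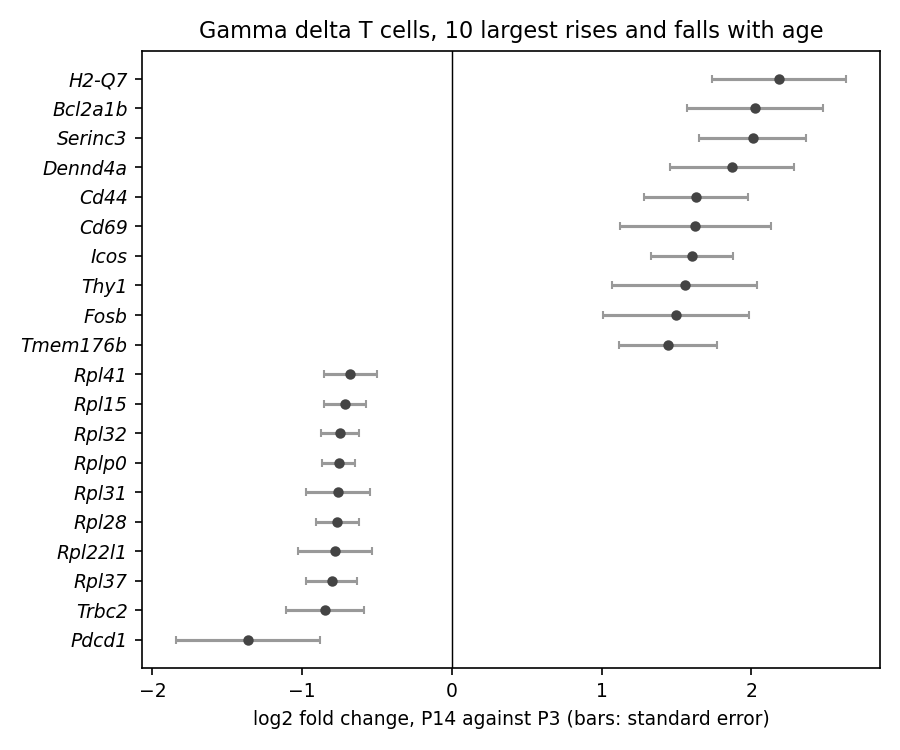
Log2 fold change at P14 against P3 in gamma delta T cells for the 10 called genes with the largest rises and the 10 with the largest falls, with bars of 1 standard error from the edgeR fit. Rises run from 1.44 to 2.19, and 8 of the 10 falls are ribosomal protein genes between -0.68 and -0.80.

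The largest falls were Pdcd1, Trbc2, Rpl37, Rpl22l1, Rpl28, Rpl31, Rplp0, Rpl32, Rpl15 and Rpl41. Pdcd1, the inhibitory receptor PD-1, had 372, 530 and 550 CPM in normoxic and 0 and 421 CPM in hyperoxic P3 mice, and 0 to 312 CPM at P14 (median 108), so 1 P3 mouse lay within the P14 range. The log2 fold change was -1.36 (SE 0.48, adjusted p = 0.0495, edgeR quasi-likelihood). Trbc2 went from 903 to 1807 CPM at P3 to 164 to 1277 CPM at P14, a change of -0.85 (SE 0.26, adjusted p = 0.0234, edgeR quasi-likelihood). It was the 1 alpha beta T cell gene that fell of 2 tested, beside 7.65% of all genes tested that fell, and 2 genes are too few to compare.

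Ribosomal protein genes made up most of the falls. Of 72 tested genes with an Rpl or Rps symbol 35 fell and 0 rose, beside 7.65% of all genes that fell, with a median of -0.36, and 66 of 72 had a negative log2 fold change. Rplp0, a protein of the ribosomal stalk, had 5997 to 7654 CPM at P3 and 2954 to 4836 CPM at P14, without overlap, a change of -0.75 (SE 0.11, adjusted p = 7.1e-05, edgeR quasi-likelihood). In P7 mice it lay between, from 4009 to 6360 CPM. With library totals in place of TMM the median was -0.46 with 69 of 72 negative, and with cells thinned to 1000 UMIs -0.16 with 47 of 65 negative and 5 called lower. The number called lower was 8 with no filter on low counts. With mice of at least 10 cells, which leave 1 P3 mouse, it was 1, with a median of -0.55 and 74 of 76 negative. Malat1, a nuclear RNA, rose by 0.75 (adjusted p = 0.0115) and the mitochondrial mt-Co1 by 0.55 (adjusted p = 0.0467, both edgeR quasi-likelihood), while mt-Co2 had 0.38 and did not pass, and the part of RNA quality in the ribosomal result was not tested. Ribosomal protein genes have many processed pseudogenes, with which reads may be shared.

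Cell cycle genes held no call. All 6 tested had negative log2 fold changes with a median of -0.66, and the levels overlapped widely, with Mki67 from 0 to 815 CPM at P3 and 0 to 790 CPM at P14. The summed level of the 16 genes ran in normoxic mice from 366 to 7435 CPM at P3 (median 1189) and from 492 to 3565 CPM at P14 (median 1477), and in hyperoxic mice from 4617 to 6128 CPM at P3 and from 665 to 7938 CPM at P14 (median 1924), so the ages overlapped. Of 10 immediate early genes tested, Fosb rose (1.50) and the others did not pass, with a list median of 0.12. That count is near the 9.22% of all genes tested that rose.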

How the data were processed

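The authors sequenced 6 droplet libraries (10x Genomics 3′ chemistry) of 5 pools of barcoded lungs, and, per the labels, made UMI counts with Cell Ranger 3.0.2 on mm10. The deposited counts are whole UMI counts per gene and cell, not normalized, after the authors assigned cells to sample barcodes, removed cells with more than 1 barcode or with none, filtered on genes and mitochondrial reads, and removed small clusters with markers of contaminant cells. The percent of mitochondrial reads that the authors deposited for each cell was not used here. Age, oxygen, sample barcode and cell type come from their annotation, and no cell was reassigned. A mouse was taken as a pool plus a sample barcode. No doublet caller was run here, so doublets within a mouse remain.

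Shares were compared by exact permutation over 6 mice a group, with Benjamini-Hochberg adjustment over 34 types and 3 ages (102 tests). For genes, counts were summed over the gamma delta T cells of each of 24 mice with at least 3 and tested with edgeR 4.0.16 (TMM, filterByExpr, quasi-likelihood) in R 4.3.3. Calls needed an adjusted p below 0.05 and detection in 10% or more of the cells of a group. A minimum of 10 cells would leave 6 mice. Further fits used DESeq2 1.42.0 and edgeR with pool as a block. On simulated counts for 577 genes, 92.7% of genes lowered and 93.9% of genes raised by 1 on the log2 scale were called for oxygen over all ages, and 0.508% of unchanged genes. The simulation gave every gene the same spread and left 394 of the 577 unchanged, and neither setting was taken from the data. These shares check the code and do not tell how often a real change of this size would be called. Intervals and limits cover counting error only, with 3 counts taken as the limit for a count of 0. 394 cell barcodes occurred in more than 1 library.

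Gamma delta T cells, their markers and all gene lists were chosen with earlier results of these data known. The text names every gene list by counts, the 15 genes with the largest ratio to any other type among genes found in 20% or more of the cells, and for each contrast the 10 called genes with the largest rise and fall at an average log2 CPM of at least 5, or the 10 smallest p where fewer than 5 were called. H2-K1, H2-D1, Hspa1a, Ifng and Il22 and the other genes named beside them were picked from the lists or the calls after their values were seen. The 10 alternatives added after the data were seen included lower count minimums, cells with a receptor UMI, and Il17a as a single value. Gene positions are from GENCODE (mm10) for 312 of 312 named genes, and promoters from RefSeq (GRCm38.p6). The files of sample barcode counts were not used. The values of 1 listed gene are not reported here.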

Additional observations from a re-analysis of the deposited data

Results flagged for a closer look

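In each group of 4 to 6 mice, the highest and lowest mouse were compared with the nearest other by Dixon's test. Groups of fewer than 6 were those limited to mice with at least 3 gamma delta T cells. At P3 these were too small to test. 10 of 64 groups of values held a mouse that stood apart, where chance gives about 1 in 20 for independent groups. Many of these groups are measures of the same mice, so the count does not show an excess over chance. The share of gamma delta T cells was 0.539% in 1 hyperoxic P3 mouse (the next had 0.173%) and 3.20% in 1 hyperoxic P7 mouse (the next had 0.746%), the latter with 125 cells in all. The same P7 mouse had 29.8 Trdc and 13.5 Cd163l1 UMIs per 1000000 UMIs of all cells, against 12 and 4.78 in the next. The same P3 mouse had 6.34 Cd163l1 UMIs per 1000000 UMIs (the next 2.23). Another P3 mouse, in normoxia, had 11.7 Trdc and 6.79 Cd163l1 UMIs per 1000000 UMIs (the next 5.09 and 2.80). At P14, 1 hyperoxic mouse had a log2 ratio to CD4+ T cells of -0.43, against -1.82 in the next.

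Il17a stood apart in 1 hyperoxic P14 mouse, with 8237 CPM in gamma delta T cells (the next 1397) and 17.1 UMIs per 1000000 UMIs over all cells (the next 5.78). 234 of its 264 Il17a UMIs were in 1 cell, and the next highest cell of the table held 71.

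Actb and Hsp90ab1 were noted because their oxygen effects differed between P14 and P7, by 1.19 and 1.38 on the log2 scale (edgeR quasi-likelihood, adjusted p = 0.0355 for both).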

How the results depend on the processing

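The share at P14 rested on 84 cells and stood close to the threshold. Its difference of 0.413 percentage points passed in some of the other settings (exact permutation tests). These were pool as a replicate block (adjusted p = 0.0464), the share of lymphoid cells (4.20, adjusted p = 0.0292) and a log2 scale (1.63, adjusted p = 0.0442). The difference did not pass in the rest, among them edgeR on cell numbers and cells with a receptor UMI. On leaving out 1 mouse it ran from 0.324 to 0.475 (adjusted p from 0.0442 to 0.105), and only 1 of these fits passed. At P7 it ran from 0.272 to 0.888 on leaving out 1 mouse (adjusted p from 0.0276 to 0.240), and passed only without the hyperoxic mouse of the lowest share (0.121%). At P3 it was near 0 and of either sign, from -0.0713 to 0.0444 without 1 mouse, 0.861 among lymphoid cells, 0.249 on the log2 scale, 0.219 with edgeR on cell numbers and 0.0179 with cells that had a receptor UMI. Between ages, the lymphoid denominator turned the sign in normoxia from P7 to P14 (-1.15) and P3 to P14 (-2.96), in hyperoxia from P3 to P7 (-0.0803) and P7 to P14 (0.464), and of the P14 minus P7 oxygen effect (1.61), none past the threshold. Without 1 mouse these ran in normoxia from -0.0133 to 0.0611 (P7 to P14), -0.0406 to 0.0514 (P3 to P14) and -0.0673 to 0.0200 (P3 to P7), and in hyperoxia from -0.444 to 0.172 (P7 to P14). UMIs per cell at P14 passed with the replicate block (1310, adjusted p = 0.0375) and with mice of at least 1 cell (1321, adjusted p = 0.00649), which turned the sign at P3 (-616) and P7 (265, both exact permutation tests). The ratios to CD8+ and CD4+ T cells passed with the block too.

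Counts of genes called depended on the filter. By oxygen over all ages, 0 became 13 with no filter on low counts, 5 with at least 10 cells (the same fit as at P14, with 1 normoxic mouse, assumed to vary like the others), 1 with a count minimum of 3 and 6 with that minimum and the replicate block. At P14, 0 became 3 with DESeq2, 3 with no TMM, 12 with no filter, 1 with at least 1 cell, 5 with at least 10 cells (1 normoxic mouse), 1 with the replicate block, 7 with a count minimum of 3, 11 with that and the block, and 0 to 4 without 1 mouse. The 2 genes whose oxygen effect differed between P14 and P7 became 1 with no TMM, 6 with no filter, 1 with at least 1 cell, 1 with the block, 0 with thinned cells, 5 with a count minimum of 3 and the block, and 0 to 3 without 1 mouse. For age, 86 became 17 with no filter, 15 with at least 10 cells (1 P3 mouse) and 11 with thinned cells, where 125 genes could be tested and 10 of the 11 were among the 86. It ran from 58 to 99 without 1 mouse. No TMM gave 86 again, split into 39 higher and 47 lower, with 78 shared, and DESeq2 92, with 83 shared. All 86 kept their sign in these 2. Il17a at P14 had an adjusted p of 0.105 with the replicate block (edgeR) and 0.0236 to 0.189 without 1 mouse. Over 50 single genes and 552 values, 1 reversed, mt-Co2 by oxygen over all ages with at least 10 cells (-0.22 against 0.30), which rests on that 1 normoxic mouse. Of the others, 451 were the same, 54 lost a pass and 46 gained one. Among the 46 is Il17a as a single value, without adjustment over genes. Cd69 by age passed in 3 of 7 other settings, Fosb in 3 of 8, Trbc2 in 4 of 8 and Serinc3 in 7 of 7. Pdcd1 by age passed in 9 of 13 fits without 1 mouse. Hsp90ab1 for the P14 minus P7 effect passed in 2 of 9 other settings. Pool could not be a block for P14 against P3, and the P14 minus P7 effect could not be fitted with at least 5 or 10 cells. With 3 to 14 cells per mouse, genes of low level were not testable, and the absence of a call does not show that the oxygen levels were alike.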

Other observations

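In the deposited annotation, RNA of gamma delta receptor genes was also counted in other lymphocytes. CD8+ T cells held 468 of 2538 Trdc UMIs and 150 of 1052 Cd163l1 UMIs, at 191 ± 189 and 88.7 ± 138 CPM (SD, n = 33 mice), and ILC2 held 48 of 272 Trdv4 UMIs and 56 of 766 Tcrg-C1 UMIs. Regulatory T cells held 105 Trdc, 75 Tcrg-C1 and 18 Il17a UMIs. Whether these come from single cells of another kind within those clusters was not tested.

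Areg, which encodes amphiregulin, a ligand of the epidermal growth factor receptor, had 0 UMIs in the 4 normoxic P14 mice and 53 in the 6 hyperoxic ones. Of these 1 mouse, the one highest for Il17a, had 1061 CPM and 2 had 0. At P7 it had 10 UMIs in 4 normoxic mice (0 to 249 CPM) and 4 in 5 hyperoxic ones (0 to 155 CPM). Of all its UMIs in the table, 41.5% were in the first cluster of type 2 epithelium, 19.3% in ciliated cells and 12.1% in ILC2.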
